A study of Mus musculus with 6 samples.

Results

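The genes described here were the 35 genes of glycolysis and the hypoxia response, taken by symbol from the 49315 genes of the count table. They comprised the enzymes that turn glucose into pyruvate and lactate, the pyruvate dehydrogenase complex and its kinases, the entry into the pentose phosphate pathway, and the subunits, regulators and targets of the hypoxia-inducible factor HIF. The rule used what the genes encode and no measured value. The counts came from bulk RNA-seq of sorted Tregs, the regulatory T cells that carry CD4 and the transcription factor Foxp3 and hold immune responses in check, from skin and from skin-draining lymph nodes (SDLN). All cells came from Foxp3-GFP mice on a C57BL/6J background that were 9 days old, in which a fluorescent protein reports Foxp3, and the labels list no treatment. Each group held 3 libraries, and by the study's methods each library pooled cells from 3 biological replicates. CD45+ cells had been enriched on magnetic beads before live CD45+ CD4+ Foxp3-EGFP+ cells were sorted. The tissue field of the labels read skin for the lymph node samples too, so the groups followed the sample titles, and libraries carry the letters A to C of the table's columns. Where 3 values are given for a tissue, they are those of its libraries A, B and C in that order.

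Glycolysis splits glucose into pyruvate and yields ATP without oxygen, and lactate dehydrogenase then turns pyruvate into lactate, whereas pyruvate dehydrogenase feeds it to the mitochondria. HIF is a dimer of HIF-1 alpha and ARNT. In oxygen, prolyl hydroxylases mark HIF-1 alpha for the ubiquitin ligase that contains VHL, and when oxygen is short HIF-1 alpha escapes and drives genes of glycolysis, angiogenesis and mitophagy. Activated effector T cells are known for intense glycolysis, and Tregs for relying more on mitochondrial oxidation.

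The libraries differed in depth and content. Total counts were 3748669 to 11741784 in skin Tregs and 47243498 to 116158706 in SDLN Tregs. A gene at 3 counts or fewer was treated as at the floor, since a count of 0 allows up to 3, which in skin Tregs is 0.800, 0.255 and 0.332 CPM. CPM, counts-per-million, divides a count by the library's own total. Foxp3, the gene of the sort gate, stood at 0, 28.1 and 0.111 CPM in skin Tregs against 37.9 to 139 CPM in SDLN Tregs, and Cd4, the other gate gene, at 0, 158 and 0.221 CPM against 302 to 537 CPM. These defining genes were therefore at or near 0 in skin Tregs A and C, while of the chains of the T cell receptor complex Cd3g stood at 607 to 888 CPM in skin against 1132 to 1209 CPM in SDLN Tregs, Cd3d at 198 to 355 against 678 to 926 CPM, and Cd3e at 0, 150 and 293 against 578 to 1063 CPM. Of the other Treg markers, Ctla4 was at 796 to 1322 CPM in skin against 353 to 583 CPM and was called higher in skin Tregs (adjusted p = 0.0447 in edgeR). That call held in only 3 of 13 alternative analyses. Il2ra was at 534 to 2232 CPM in skin against 748 to 1330 CPM. Of 17 myeloid markers 16 could be tested and 15 were higher in skin Tregs, with a summed level of 34720 to 60970 CPM against 443 to 779 CPM, with Cd74 the most abundant, although Itgam was at 0 in every skin library. Of 10 stress and digestion response genes 7 were higher in skin Tregs, with a summed level of 18200, 8454 and 3437 CPM in skin Tregs against 867 to 1015 CPM, Junb being the most abundant. All 5 keratinocyte keratins were at 0 in every skin library, and Krt10 was at 6.98 to 9.31 CPM in SDLN Tregs and called higher there (adjusted p = 0.00322 in edgeR). Of the 4 B cell markers 3 were called higher in SDLN Tregs, with Cd79b the most abundant at 38.9 to 69.9 CPM there and 0 to 2.66 CPM in skin. No erythroid, fibroblast or endothelial marker was called in edgeR on all 6 libraries, although Pecam1 was in 4 of 12 alternative analyses and Hba-a1, Hbb-bs, Hbb-bt and Alas2 in 1 each. The most abundant of these lists were Hbb-bs at 81.4 to 292 CPM in skin, Col3a1 at 50.5 CPM in skin B and Pecam1 at 139 to 173 CPM in SDLN Tregs. The part of these markers in the results that follow was not tested, and in bulk libraries fewer cells of a type and less RNA per cell cannot be told apart.

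The members fell into those that every skin library carried, those that some of them carried and those that none did. In the SDLN libraries 34 of the 35 members exceeded 3 counts in every library, and Vegfa, which encodes an angiogenic growth factor, had no count in any of the 6 libraries. In skin Tregs, 17, 18 and 21 members exceeded 3 counts. Those over the floor in all 3 skin libraries numbered 13, of which 10 belonged to the main line from glucose 6-phosphate to lactate. The remaining tested members were 12 that exceeded 3 counts in 1 or 2 skin libraries and 9 that exceeded them in none. Among all 13572 genes tested, 12.1% were over the floor in every skin library, 44.6% in 1 or 2 and 43.3% in none.

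**Figure D1:**
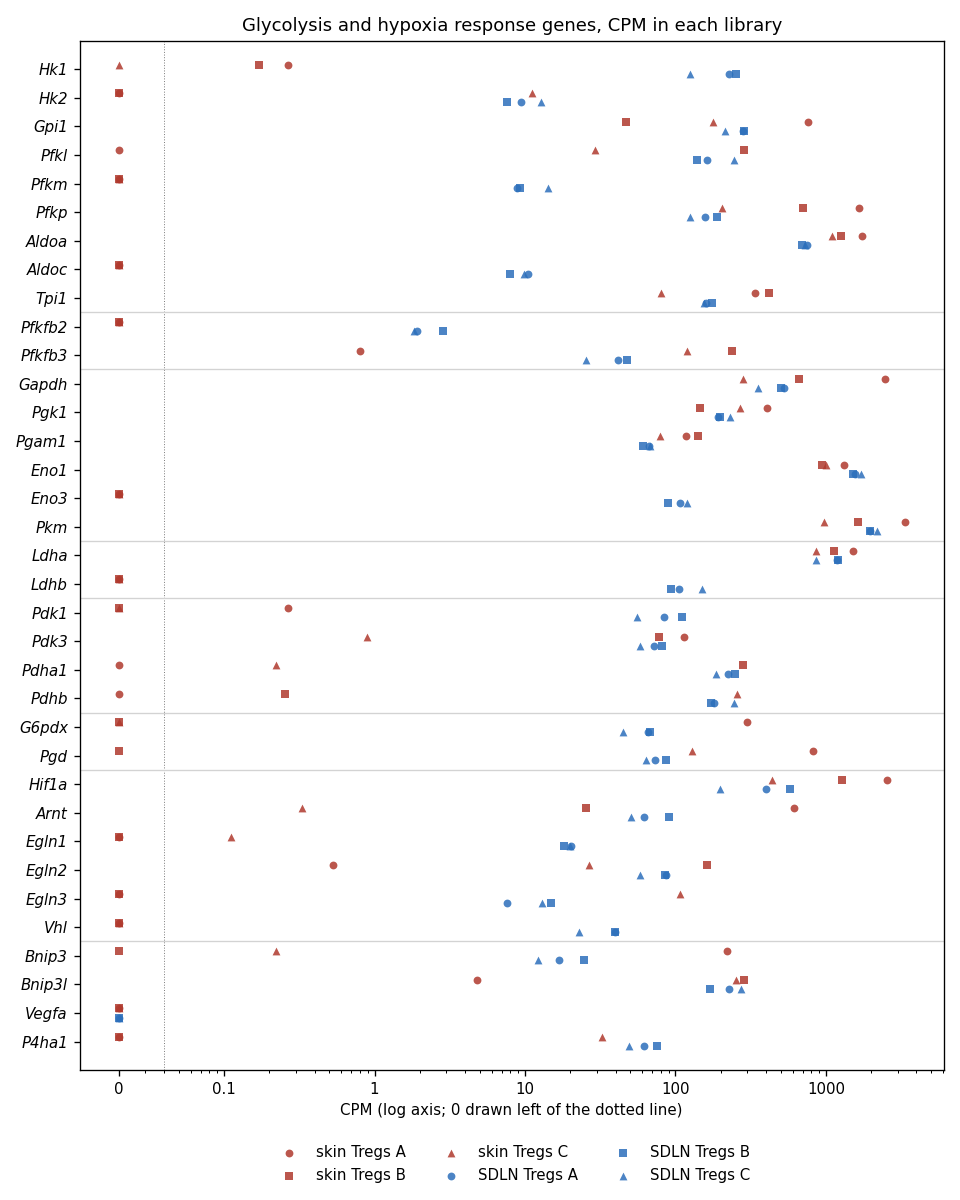
CPM of the 35 members in each library on a log axis, with skin Tregs in red and SDLN Tregs in blue, libraries A, B and C as circles, squares and triangles, values of 0 drawn left of the dotted line where they overlie each other, and grey lines between role groups. The SDLN points of a gene lie close together, while the skin points spread over the axis or fall to 0.

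Skin and SDLN Tregs were compared with edgeR's quasi-likelihood test on all 13572 genes that passed its filter on low counts, and adjustment (Benjamini-Hochberg) ran over all of them. Of the 34 members tested, 2 were higher in skin Tregs, Pfkp and Aldoa, beside 1.04% of all genes tested. Another 9 were higher in SDLN Tregs, beside 45.3% of all genes tested, and these were exactly the 9 members at the floor in every skin library. They passed the filter through the SDLN libraries alone, so their calls record that they were at the floor in skin Tregs and say nothing further about the members. The median log2 fold change (skin over SDLN) was -2.21 over all genes tested and -0.19 over the tested members. Over the 13 members and the 1646 tested genes that exceeded 3 counts in every skin library, the medians were 0.31 and 0.30, and of those 1646 genes 8.38% were called for skin and 1.64% for SDLN Tregs. Without the skin libraries A and C, in a fit added after the data were seen that took its spread from the SDLN libraries, 6 members were called for skin and 18 for SDLN Tregs, beside 10.6% and 46.0% of the 18473 genes tested in that fit. Whether the libraries of a group came from separate experiments is not stated in the labels, and p-values measure only the spread between these libraries.

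The groups were also compared by whether their libraries overlapped in CPM. Every skin library lay above every SDLN library for 3 members, Pfkp, Aldoa and Pgam1, beside 2.39% of all genes tested. Every SDLN library lay above every skin library for 11, beside 53.6% of all genes tested. Those 11 were the 9 members called higher in SDLN Tregs, Eno1 and P4ha1. Replicates spread more widely in skin. The coefficient of variation over the 3 libraries was larger in skin than in SDLN Tregs for 28 of the 28 members with a count in skin. Its median over the 13 members detected throughout was 63.3% in skin and 15.8% in SDLN Tregs, against 58.7% and 22.4% over the 1646 genes detected throughout.

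In the preparatory phase of glycolysis, which spends ATP to make triose phosphates, the members called higher in skin Tregs were Pfkp and Aldoa. Pfkp encodes the platelet-type phosphofructokinase, the enzyme of the committed step, and lies on chromosome 13 from 6579768 to 6648777 (GRCm38). It stood at 1655, 706 and 203 CPM in skin Tregs and at 157, 190 and 124 CPM in SDLN Tregs. The lowest skin library lay just above the highest SDLN library. Mean levels of 855 ± 737 and 157 ± 32.9 CPM (SD, n = 3 each) differed 5.43-fold, and edgeR gave a log2 fold change of 2.20 (SE 0.67, adjusted p = 0.0390). The call was lost in 10 of 13 alternative analyses, among them library size only, limma voom, both other filters and libraries drawn down (adjusted p = 0.0552 to 0.195). It was also lost on leaving out any library other than skin C, with log2 fold changes of 1.5 without skin A, 2.16 without skin B, and 2.19, 2.38 and 2.01 without SDLN A, B and C (adjusted p = 0.0824 to 0.167 in edgeR). Exons of Pitrm1 overlap 5.58% of those of Pfkp on the other strand.

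Aldoa, which encodes the aldolase that splits fructose 1,6-bisphosphate, showed the smaller but tighter difference. It lies on chromosome 7 from 126795234 to 126800751. Skin Tregs held 1731, 1256 and 1102 CPM, and SDLN Tregs 745, 690 and 722 CPM. The groups were well apart, with means of 1363 ± 328 and 719 ± 27.8 CPM (SD, n = 3 each). The fold of the means was 1.90 and the log2 fold change 0.85 (SE 0.26, adjusted p = 0.0379 in edgeR). The call was lost in 8 of 13 alternative analyses, among them limma voom, no filter and the minimum of 10 counts (adjusted p = 0.143 to 0.517). It held without skin A (adjusted p = 0.0250 in edgeR) and was lost without any other single library, with log2 fold changes of 0.83 and 0.70 without skin B and C and of 0.84, 0.81 and 0.78 without SDLN A, B and C. With skin B as the only skin library the adjusted p was 0.0524 for Aldoa and 0.000709 for Pfkp in edgeR.

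The other preparatory enzymes gave no call for skin. Gpi1, the isomerase after hexokinase, ranged from 46.9 to 764 CPM in skin and from 212 to 285 CPM in SDLN Tregs, so that the SDLN range lay inside the skin range. Tpi1, which interconverts the triose phosphates, stood at 340, 416 and 79.8 CPM in skin Tregs and at 155 to 174 CPM in SDLN Tregs (log2 fold change 0.66, SE 0.79, adjusted p = 0.679 in edgeR). Pfkl, the liver-type phosphofructokinase, was at 0 in skin A, at 287 CPM in skin B and at 29.2 CPM in skin C, against 139 to 244 CPM in SDLN Tregs. Skin libraries thus fell on both sides of the SDLN values for all 3 of these genes.

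Hexokinase, which traps glucose in the cell, showed a gap in skin. Hk1 was abundant in SDLN Tregs, at 228, 253 and 125 CPM. In skin Tregs it had 1, 2 and 0 counts (adjusted p = 0.00639 in edgeR), and its call records only that it was at the floor there. Drawn at random down to the total of the smallest skin library, the SDLN libraries still held 514 to 916 counts of Hk1. Hk2, the hexokinase that HIF is known to induce, was low in SDLN Tregs at 7.65 to 12.9 CPM. It was at 0 in skin Tregs A and B and at 11.1 CPM in skin C, inside the SDLN range. Pfkm and Aldoc, the muscle-type phosphofructokinase and an aldolase best known from brain, had no count in any skin library. In SDLN Tregs Pfkm reached 8.91 to 14.2 CPM, at least 11.1-fold higher than the floor of skin A, and Aldoc 7.90 to 10.4 CPM, at least 9.87-fold higher. These bounds set the lowest SDLN library against the highest skin floor and cover counting error only.

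Fructose 2,6-bisphosphate, the activator of phosphofructokinase, is made by PFKFB enzymes. Pfkfb3, the isoform that favours its synthesis, stood at 0.800, 237 and 119 CPM in skin Tregs and at 41.4, 47.4 and 25.3 CPM in SDLN Tregs. Skin B and C lay above the SDLN libraries and skin A, with 3 counts, below them (log2 fold change 1.82, SE 1.87, adjusted p = 0.610 in edgeR). Pfkfb2 had no count in skin and 1.82 to 2.84 CPM in SDLN Tregs, at least 2.27-fold higher.

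The pay-off phase of glycolysis, which recovers ATP, was the most fully detected group, with 5 of its 6 members over the floor in every skin library and none called higher in skin Tregs. Gapdh, the dehydrogenase that opens it, had the largest coefficient of variation between skin libraries within this group, at 103%. It stood at 2479, 665 and 280 CPM in skin Tregs against 529, 505 and 355 CPM in SDLN Tregs. Skin A was far above and skin C below every SDLN library, and the log2 fold change of 1.01 (SE 0.64) did not pass the test (adjusted p = 0.326 in edgeR) and was 0.0033 without skin A. Pgk1, the first ATP-forming kinase, ranged from 147 to 405 CPM in skin and from 193 to 232 CPM in SDLN Tregs. Pgam1, the mutase that follows, was at 117, 142 and 78.5 CPM in skin Tregs and at 66.7, 60.7 and 68.0 CPM in SDLN Tregs. Its groups did not overlap, yet the log2 fold change was 0.74 with an SE of 1.04 (adjusted p = 0.745 in edgeR). Pkm, the pyruvate kinase and the member with the highest CPM in SDLN Tregs, held 3330, 1628 and 976 CPM in skin Tregs and 1958, 1949 and 2180 CPM in SDLN Tregs. The skin libraries lay on both sides, and the log2 fold change was -0.22 (SE 0.29, adjusted p = 0.728 in edgeR).

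For both enolases every SDLN library lay above every skin library. Eno1, the enolase of most tissues, held 1323, 942 and 1000 CPM in skin Tregs. SDLN Tregs held 1566, 1523 and 1712 CPM, all above the skin libraries. The log2 fold change of -0.61 (SE 0.25) missed the threshold (adjusted p = 0.115 in edgeR), passed it without skin A (-0.71, adjusted p = 0.0223 in edgeR) and without skin C (-0.85, adjusted p = 0.0319 in edgeR), and passed it with DESeq2 (adjusted p = 0.00274) and with libraries drawn down to the smallest (adjusted p = 0.0313 in edgeR). Eno1b, a near-identical copy whose reads can be split from Eno1 in counting, stood at 25.8 to 42.7 CPM in skin and 24.5 to 39.1 CPM in SDLN Tregs. Eno3, the enolase best known from muscle, was at 0 in every skin library and at 107, 89.8 and 119 CPM in SDLN Tregs. That is at least 112-fold higher in SDLN Tregs (adjusted p = 0.0119 in edgeR). Without SDLN A, B or C the adjusted p of Eno3 in edgeR was 0.0602, 0.0642 and 0.0533. Of 10 muscle markers, 9 were at the floor in every skin library, Acta1 and Ckm were below 0.5 CPM in every library, and Tnnt3, Actn2 and Ttn were at 1.04 to 7.61 CPM in SDLN Tregs. These 3, of 4 that could be tested, were called higher in SDLN Tregs, beside 45.3% of all genes tested, and like Eno3 they passed the filter through the SDLN libraries alone, so that the calls record only that they were at the floor in skin. Mylpf, the most abundant of the list, reached 14.7 to 58.2 CPM in SDLN Tregs and 73.7 CPM in skin C. Their summed level was 26.2 to 64.9 CPM in SDLN Tregs and 0 to 73.8 CPM in skin Tregs, and the part of these genes in the level of Eno3 was not tested.

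The 2 genes of lactate dehydrogenase differed in their pattern. Ldha encodes the subunit best known for making lactate and lies on chromosome 7 from 46841475 to 46855627. Its level was 1521, 1139 and 862 CPM in skin Tregs and 1189, 1202 and 855 CPM in SDLN Tregs. Skin B and C fell inside the SDLN range and skin A above it, and the log2 fold change was 0.05 (SE 0.26, adjusted p = 0.959 in edgeR), with a sign that turned in 8 of 13 alternative analyses. Ldhb encodes the subunit best known from heart and lies on chromosome 6 from 142490249 to 142507957. It had no count in any skin library, among 26861 counts of the pair, and stood at 105, 92.8 and 150 CPM in SDLN Tregs. Every SDLN library was far above the floor of the skin libraries, at least 116-fold (adjusted p = 0.0122 in edgeR). Like Eno3, Ldhb passed the filter through the SDLN libraries alone, so its call records only that it was at the floor in skin. The bound covers counting error only. Leaving out SDLN A, B or C took the adjusted p of Ldhb in edgeR to 0.0642, 0.0666 and 0.0535. At the depth of the smallest skin library the SDLN libraries still held 371 to 595 counts of Ldhb.

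The start sites of these genes are shown because HIF binds a short element, of whose core ACGTG is a common form. Only ACGTG was searched for, and the pair differed in it. The form GCGTG was not counted. Promoter windows of 300 bases around a start site, most of them upstream of it, came from RefSeq on GRCm38.p6 and matched 34 of the 35 members, all except Bnip3l. Capitals mark ACGTG or its reverse complement CACGT, and overlapping matches, as in CACGTG, were counted once. The windows shown are Aldoa chr7:126799205-126799504 on the minus strand, Pfkp chr13:6648722-6649021 on the minus strand, Ldha chr7:46845554-46845853 on the plus strand and Ldhb chr6:142507908-142508207 on the minus strand, all written in the direction of transcription. Where a gene had several windows, the one with most matches is given.
Aldoa: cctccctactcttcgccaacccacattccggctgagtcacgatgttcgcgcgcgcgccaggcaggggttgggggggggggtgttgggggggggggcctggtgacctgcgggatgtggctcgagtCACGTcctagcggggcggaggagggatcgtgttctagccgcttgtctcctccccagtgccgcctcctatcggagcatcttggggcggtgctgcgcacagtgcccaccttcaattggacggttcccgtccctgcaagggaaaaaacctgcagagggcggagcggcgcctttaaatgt
Pfkp: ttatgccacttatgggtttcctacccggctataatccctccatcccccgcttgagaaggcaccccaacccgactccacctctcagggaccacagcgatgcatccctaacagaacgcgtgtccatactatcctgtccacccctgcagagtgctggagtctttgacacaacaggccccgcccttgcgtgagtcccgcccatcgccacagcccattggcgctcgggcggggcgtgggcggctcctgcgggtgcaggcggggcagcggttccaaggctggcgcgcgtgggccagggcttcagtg
Ldha: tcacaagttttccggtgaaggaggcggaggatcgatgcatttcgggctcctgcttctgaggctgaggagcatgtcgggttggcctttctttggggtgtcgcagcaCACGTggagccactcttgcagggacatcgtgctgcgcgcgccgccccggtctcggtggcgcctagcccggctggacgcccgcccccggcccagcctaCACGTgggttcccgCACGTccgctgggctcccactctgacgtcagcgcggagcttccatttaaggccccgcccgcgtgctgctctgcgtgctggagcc
Ldhb: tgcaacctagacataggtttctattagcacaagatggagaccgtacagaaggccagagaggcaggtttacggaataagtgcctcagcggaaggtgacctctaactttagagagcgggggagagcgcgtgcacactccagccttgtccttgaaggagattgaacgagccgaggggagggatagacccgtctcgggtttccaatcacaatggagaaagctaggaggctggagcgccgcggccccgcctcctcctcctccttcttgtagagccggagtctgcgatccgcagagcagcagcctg

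The Ldha window held 3 matches, the Aldoa window 1, and the windows of Pfkp and Ldhb 0. Of all 32851 windows of RefSeq, 19.6% held at least 1 match and 0.414% held 3 or more. Of the 52 windows of the members 50.0% held a match, and 22 of the 34 members with a window had one, against 21.8% of all genes. Of the members called for skin Tregs, Aldoa had a match and Pfkp none. Of the members at the floor in every skin library, Hk1, Pfkm, Aldoc, Pfkfb2 and Egln1 had a match, and Eno3, Ldhb, Pdk1 and Vhl had none. A match is a run of letters and not evidence that a factor binds there, and no match says only that these letters are not in this window.

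Pyruvate dehydrogenase commits pyruvate to the mitochondria, and of the 2 subunits and 2 kinases among the members, 3 were at the floor in at least 1 skin library. Pdha1, the catalytic alpha subunit, was at 279 CPM in skin B, at 0 in skin A and at 2 counts in skin C, against 185 to 247 CPM in SDLN Tregs. Pdhb, its partner subunit, was at 257 CPM in skin C, at 0 in skin A and at 3 counts in skin B, against 173 to 245 CPM in SDLN Tregs. The 2 subunits of the same enzyme were therefore detected in different skin libraries, each a little above its SDLN range. Pdk1, a kinase that shuts the complex off and a known HIF target, had 1, 0 and 0 counts in skin Tregs and 84.4, 110 and 55.3 CPM in SDLN Tregs (adjusted p = 0.0124 in edgeR, and 0.0504 without SDLN A). The call of Pdk1 records only that it was at the floor in skin. Pdk3, a kinase of the same family, stood at 114, 77.8 and 0.886 CPM in skin Tregs and at 71.9, 81.4 and 58.6 CPM in SDLN Tregs.

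The pentose phosphate pathway, which makes NADPH and ribose, was represented by its oxidative dehydrogenases, and skin A carried most of their skin signal. G6pdx, the first of them, was at 299 CPM in skin A and at 0 in skin B and C, against 45.1 to 67.5 CPM in SDLN Tregs. Pgd, the later dehydrogenase, was at 824, 0 and 129 CPM in skin Tregs and at 63.8 to 86.6 CPM in SDLN Tregs. Neither passed the test (adjusted p = 0.983 for G6pdx and 0.730 for Pgd in edgeR).

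Both HIF subunits had the higher mean in skin, and neither passed the test. Hif1a, the oxygen-regulated subunit, lies on chromosome 12 from 73901375 to 73947530. It held 2541, 1283 and 438 CPM in skin Tregs and 398, 579 and 198 CPM in SDLN Tregs. Skin A and B exceeded every SDLN library and skin C fell inside their range. The means of 1421 ± 1058 and 392 ± 191 CPM (SD, n = 3 each) differed 3.63-fold, with a log2 fold change of 1.67 (SE 0.60, adjusted p = 0.0698 in edgeR). The threshold was passed without skin C (1.88, adjusted p = 0.0482 in edgeR) and with DESeq2 (adjusted p = 0.0172). Arnt, the constant partner of Hif1a, was at 618, 25.6 and 0.332 CPM in skin Tregs against 50.8 to 90.1 CPM in SDLN Tregs, which spans both sides. Arnt averaged 215 ± 350 CPM in skin and 67.7 ± 20.2 CPM in SDLN Tregs (SD, n = 3 each), and edgeR gave it a log2 fold change of 1.19 (SE 2.03, adjusted p = 0.811).

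The oxygen sensors were seen incompletely in skin Tregs. Vhl, the substrate receptor of the ligase that removes HIF-1 alpha, had no count in skin and 39.7, 39.6 and 23.0 CPM in SDLN Tregs, at least 28.7-fold higher (adjusted p = 0.00369 in edgeR). Egln1, the main prolyl hydroxylase in most tissues, had 0, 0 and 1 counts in skin Tregs and 18.3 to 20.4 CPM in SDLN Tregs (adjusted p = 0.00365 in edgeR). Both genes were thus at the floor in every skin library, and their calls record only that. Egln2 was at 0.534, 162 and 26.8 CPM in skin Tregs against 58.2 to 85.9 CPM in SDLN Tregs. Egln3, a hydroxylase that HIF itself induces, was detected in skin C alone, at 107 CPM, against 7.56 to 14.9 CPM in SDLN Tregs. For Egln2 and Egln3 the single skin libraries lay on both sides of the SDLN values, and neither passed the test.

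Bnip3l, Bnip3 and P4ha1 are HIF targets outside glycolysis and pyruvate metabolism. Bnip3l, a receptor for mitophagy, was at 4.80, 284 and 253 CPM in skin Tregs and at 227, 170 and 274 CPM in SDLN Tregs. Bnip3, its relative and a classical hypoxia gene, reached 221 CPM in skin A, had 0 and 2 counts in skin B and C, and stood at 12.2 to 24.5 CPM in SDLN Tregs. P4ha1, a collagen prolyl hydroxylase, was detected in skin C alone, at 32.7 CPM, below the 49.2 to 74.9 CPM of SDLN Tregs. None of the 3 passed the test (adjusted p = 0.981 for Bnip3l, 0.817 for Bnip3 and 0.716 for P4ha1 in edgeR).

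The members detected in 1 or 2 skin libraries had no library in common. Skin C alone held Hk2, Pdhb, Egln3 and P4ha1, skin A alone held G6pdx and Bnip3, and skin B alone held Pdha1. The other 5, Pfkl, Pfkfb3, Pgd, Arnt and Egln2, exceeded the floor in 2 skin libraries. None of these 12 members passed the test in edgeR, while limma voom called Pdha1 (adjusted p = 0.0239) and G6pdx (adjusted p = 0.0408) for SDLN Tregs. At the depth of the smallest skin library every one of the 12 kept at least 26 counts in each SDLN library. The 7 that a single skin library held were each called for SDLN Tregs once that library was left out, since they were then at the floor in all remaining skin libraries. Their adjusted p in edgeR was then 0.00672 for G6pdx and 0.0159 for Bnip3 without skin A, 0.0109 for Pdha1 without skin B, and 0.00418 for Hk2, 0.0105 for Pdhb, 0.00443 for Egln3 and 0.00509 for P4ha1 without skin C. For G6pdx, Bnip3 and Egln3 this turned a log2 fold change of 0.24, 1.55 and 1.93 to below 0. Without skin A it also turned for Arnt, from 1.19 to -2.45, and for Pgd, from 1.73 to -0.14, and for Egln2 it moved from -0.17 to 0.26 without skin A and to 0.024 without skin C, with no call.

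Summed by role, most groups overlapped between the tissues. All members together held 18290, 9724 and 6433 CPM in skin Tregs and 9137, 9290 and 8668 CPM in SDLN Tregs. The skin libraries stood in the same order as for the summed myeloid markers, with 60970, 38390 and 34720 CPM, and for the stress and digestion response genes given above. The Treg gate genes also summed in that order, to 4499, 3812 and 2506 CPM, and the erythroid markers in the reverse order, to 137, 263 and 842 CPM. Whether these sums are linked was not tested. The preparatory enzymes summed to 2935 ± 1456 CPM in skin and 1713 ± 80.4 CPM in SDLN Tregs, and the pay-off enzymes to 4594 ± 2690 and 4470 ± 176 CPM (SD, n = 3 each). In both groups of enzymes the SDLN values lay within the skin range. HIF subunits and oxygen sensors summed to 3159, 1471 and 572 CPM in skin Tregs and to 614, 828 and 363 CPM in SDLN Tregs, with Hif1a the largest contributor. Pyruvate dehydrogenase and its kinases were the only role group whose libraries did not overlap, at 114, 357 and 258 CPM in skin Tregs and 560, 612 and 544 CPM in SDLN Tregs. In that group Pdk1 was at the floor in every skin library, and Pdha1 and Pdhb were over it in skin B alone and skin C alone. Of all genes tested, taken singly, 53.6% had every SDLN library above every skin library. No test was applied to these sums.

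**Figure D2:**
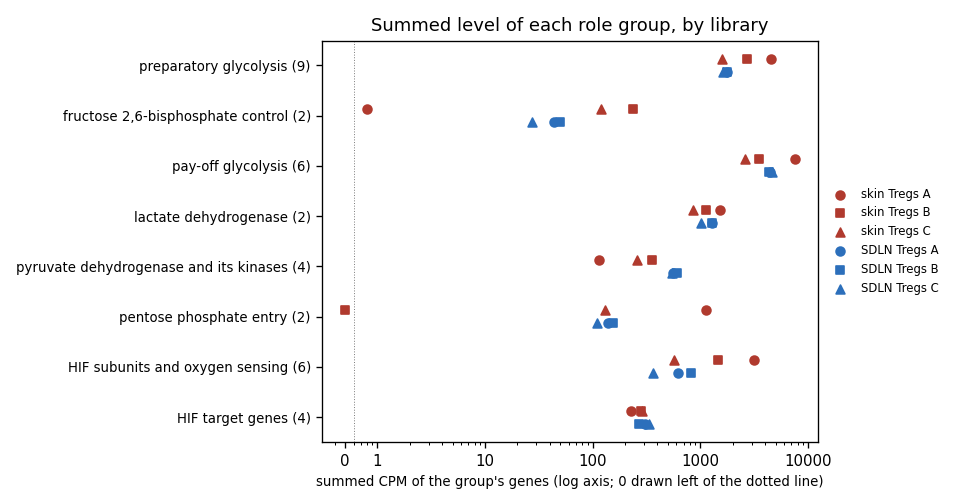
Summed CPM of each role group (number of genes in brackets) in each library on a log axis, skin Tregs in red and SDLN Tregs in blue, with values of 0 left of the dotted line. For pyruvate dehydrogenase and its kinases the skin points lie at 114 to 357 CPM and the SDLN points at 544 to 612 CPM, the row where the colours do not overlap.

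**Figure D3:**
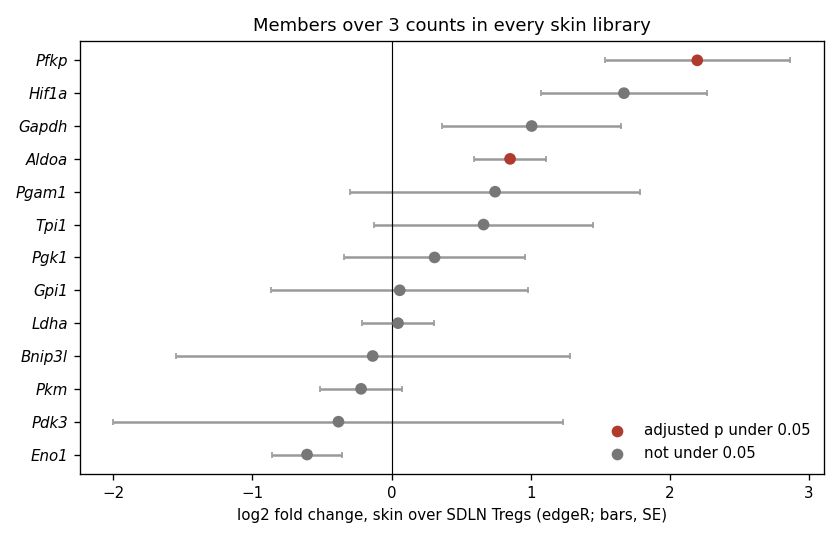
Log2 fold change (skin over SDLN Tregs) with its SE for the 13 members over 3 counts in every skin library, from edgeR on all genes tested, with red points for an adjusted p under 0.05. Pfkp at 2.20 and Aldoa at 0.85 are the red points, and the bars of Pdk3 and Bnip3l are the widest.

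Levels were also ordered within each tissue on a per-length scale, TPM, counts per kilobase of exon scaled to the same sum in each library. In SDLN Tregs the order began with Pkm at 1172 ± 54.3, Ldha at 949 ± 199, Eno1 at 860 ± 31.5 and Aldoa at 714 ± 17.1 TPM (SD, n = 3 each). The libraries of Ldha and Eno1 overlapped in that order, while those of Pkm and Ldha and of Eno1 and Aldoa did not. In skin Tregs it began with Aldoa at 1315 ± 264, Pkm at 1101 ± 635, Ldha at 996 ± 244 and Gapdh at 761 ± 760 TPM (SD, n = 3 each), and all of these neighbours overlapped. Hif1a came after Gapdh in skin, at 669 ± 477 TPM, and had rank 8 of 35 in SDLN Tregs, at 195 ± 102 TPM.

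The balance between paralogs, genes that encode forms of the same enzyme, was taken as the share of each in the family's counts per kilobase. A family here holds its members only, so that Eno1b is outside the enolase total. Ldhb made up 15.7%, 14.0% and 27.0% of lactate dehydrogenase in SDLN Tregs and 0% in each skin library. On raw counts its SDLN mean was 10.1%, and its count of 0 allows a share of up to 0.0526%, 0.0224% and 0.0385% in skin A, B and C. Eno3 made up 17.4%, 15.4% and 17.7% of the Eno1 and Eno3 total in SDLN Tregs and 0% in skin, and its SDLN mean was 16.9% per kilobase and 6.15% on raw counts. Of each of these pairs the skin libraries thus held counts of a single gene. Pdk1 made up 27.5% ± 3.59 of the Pdk1 and Pdk3 total in SDLN Tregs and 0.0257% ± 0.0445 in skin Tregs (SD, n = 3 each). On raw counts, with no division by length, the Pdk1 mean in SDLN Tregs was 53.4%, so which of the kinases led there depended on the scale. Aldoa was 98.9% ± 0.119 of aldolase in SDLN Tregs and 100% in skin, so that aldolase was close to a single form in both tissues.

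Phosphofructokinase was a single form in skin A and kept more than a single form in skin B and C. Pfkp made up 100%, 55.1% and 77.6% of it in skin Tregs, against 30.4%, 37.6% and 18.5% in SDLN Tregs. Pfkl made up the rest in skin B and C and led in SDLN Tregs, with 63.6% ± 8.98 (SD, n = 3). Every skin library had a larger Pfkp share than every SDLN library, also on raw counts, where the means were 86.2% in skin and 45.6% in SDLN Tregs. Among the prolyl hydroxylases, Egln2 made up 73.0% ± 5.94 in SDLN Tregs (SD, n = 3), while it was 100% in skin B and 19.3% in skin C, where Egln3 made up 80.7%. Skin A had too few counts of this family for a share. No test was applied to the shares, and a share falls to 0 when a gene is missed by a library as well as when it is not expressed.

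**Figure D4:**
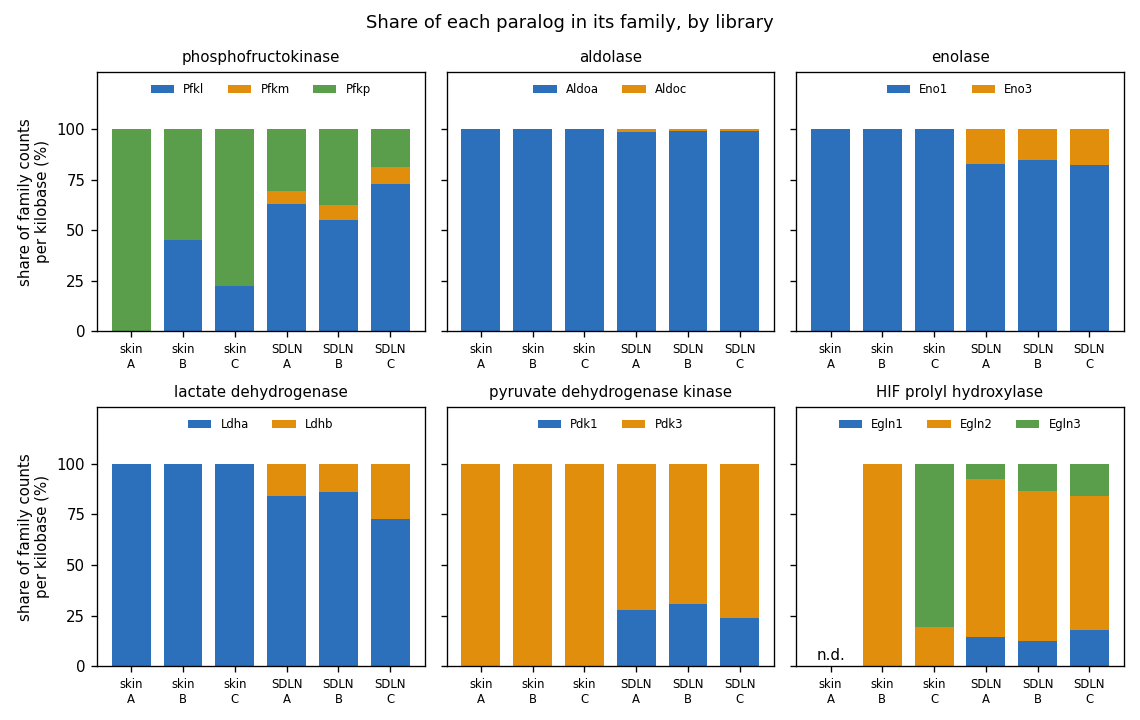
Share (%) of each paralog in its family's counts per kilobase of exon, stacked for each library, in 6 families made up of members only, with n.d. where the family had 3 counts or fewer. Enolase and lactate dehydrogenase are of a single colour in the skin bars and of 2 colours in the SDLN bars, and Pfkp (green) takes 55.1% to 100% of phosphofructokinase in skin.

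Which members every skin library carried followed their level in SDLN Tregs. All 6 members with an SDLN mean of 300 CPM or more (Pkm, Eno1, Ldha, Aldoa, Gapdh and Hif1a) were over the floor in every skin library, as were 67.2% of all genes from 300 to 1000 CPM and 96.7% of those above. From 100 to 300 CPM it was 5 of 11 members, beside 28.1% of 1760 genes. From 30 to 100 CPM it was 2 of 10 members, beside 8.63% of 3649 genes, and below 30 CPM it was none of 7. Genes without a count in SDLN Tregs, Vegfa among them, were left out of these bands. In the band from 100 to 300 CPM, Hk1, Eno3 and Ldhb were at the floor in every skin library, 3 of 11 members beside 8.47% of all genes there. These 3 enzymes thus belonged to the minority of genes at that SDLN level that were at the floor throughout skin.

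**Figure D5:**
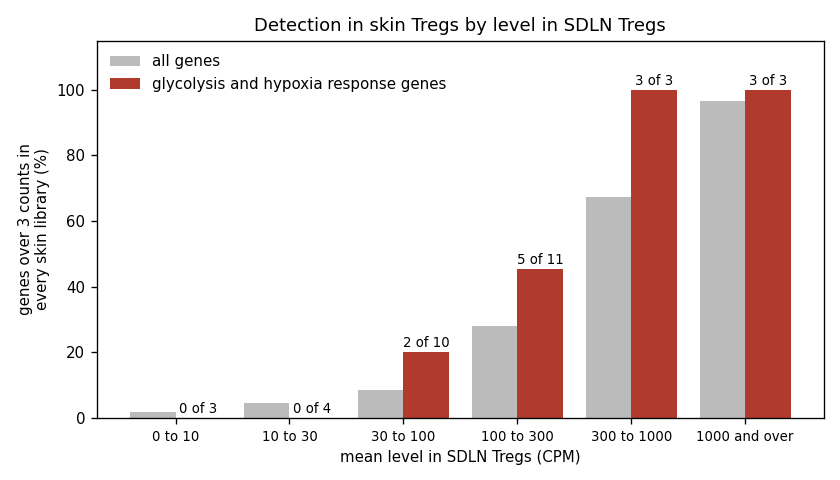
Share (%) of genes over 3 counts in every skin library, by mean CPM in SDLN Tregs, for all genes (grey) and for the members (red, with their number). Both bars rise with the SDLN level, from 0 of 3 members below 10 CPM to 3 of 3 members at 1000 CPM and over. Genes without a count in SDLN Tregs, Vegfa among them, are left out.

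The other genes of these pathways were 81 genes that are not members. Of the 60 that could be tested, 0 were higher in skin Tregs in edgeR, beside 1.04% of all genes tested, also at an unadjusted p under 0.05, in DESeq2 and in limma, and 2 were without skin C. In SDLN Tregs 23 were higher (38.3% of those tested, against 45.3% of all genes), and all 23 were at the floor in every skin library. Those with the highest SDLN means among them included Dlat, a subunit of pyruvate dehydrogenase, at 65.0 to 109 CPM in SDLN Tregs and 0 in every skin library. They also included Slc16a1, a lactate and pyruvate transporter, at 45.2 to 66.8 CPM in SDLN Tregs and with 0, 3 and 1 counts in skin Tregs. Bpgm, Pgm1 and Pgm2, which move phosphate within glycolytic and glycogen intermediates, were at 0 in every skin library and at 43.5 to 58.6 CPM in SDLN Tregs, and Adpgk, Pgls and Tfrc had at most 3 counts in a skin library. The glucose transporters were chosen for mention after their values were seen. Slc2a1 was at 531, 145 and 0.111 CPM in skin Tregs against 43.3 to 58.9 CPM in SDLN Tregs, and did not pass the test (adjusted p = 0.656 in edgeR). Slc2a3 was detected in skin C alone, at 258 CPM, against 183 to 276 CPM in SDLN Tregs.

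Some values carry a limit from counting, as the strand setting was not given in the sources used here. Exons of other genes overlap 22.2% of the exon bases of Bnip3 (Gm45507), 17.4% of Pfkfb2 (Gm29427), 16.1% of Pdha1 (Map3k15), 15.3% of Pkm (Gm49759), 13.6% of G6pdx (Ikbkg), 11.5% of Gpi1 (Gm26762) and 10.2% of Pfkm (Gm26513). No single gene overlapped more than 6% of the exon bases of another member, and Ldha, Ldhb, Eno1 and Eno3 had none.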

How the data were processed

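Bulk RNA-seq was analysed for 3 skin and 3 SDLN Treg libraries, all of batch 1 per the labels. Per the study's methods and the submitters' processing notes, the authors trimmed 150 bp paired-end reads with Trimmomatic 0.36, mapped them to GRCm38 with STAR 2.5.2b and counted unique exon reads per gene with featureCounts (Subread 1.5.2). The table they deposited holds unnormalised counts for Ensembl genes. The annotation release and strand setting are not given in the sources used here. Without molecular identifiers, PCR copies count separately, so floors cover counting error only.

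GENCODE M21 named 49056 of the 49315 genes. The test was edgeR 4.0.16 in R 4.3.3 (filterByExpr, TMM, glmQLFit with robust estimation, glmQLFTest, tissue as the only term), with Benjamini-Hochberg adjustment over all genes tested and a threshold of 0.05. The SE was the absolute log2 fold change divided by the square root of F. The methods name no test for this comparison. CPM are relative to the library total and TPM use the union of exon lengths. On simulated data the fit recovered seeded changes where libraries of a group varied little, and recovered none where they varied as widely as the common dispersion of these libraries, so a p above the threshold does not show that levels did not differ.

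There were 13 alternatives: DESeq2 size factors, library size only, the Wald test of DESeq2 1.42.0, limma 3.58.1 voom with quality weights, no filter, a minimum of 10 counts in all libraries, drawing each library down to the smallest total, and leaving out each library. Skin B as the only skin library, and the column letter as a block, were added after the data were seen. Members and gene lists were chosen with earlier results of these data known. All members were named. Of the other pathway genes the rule named the 8 called genes with the highest mean CPM in a direction, and of marker lists the defining genes at or near 0 and the most abundant. Cd3d, Cd3e, Cd3g, Ctla4, Tnnt3, Actn2 and Ttn were named after their values were seen.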

Additional observations from a re-analysis of the deposited data

How the results depend on the processing

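The count of 2 members higher in skin Tregs was 3 with the DESeq2 Wald test, fell to 1 with library size only and with libraries drawn down, and to 0 with limma voom, without a filter and under a minimum of 10 counts in all libraries, and it ranged from 0 to 2 over the fits that left out 1 library. The 9 members higher in SDLN Tregs became 0 under that minimum, which leaves 12 members and by construction none of the 9, and ranged from 6 to 14 when 1 library was left out. Of the other pathway genes, 23 were higher in SDLN Tregs and 0 under the minimum, and 0 were higher in skin Tregs, or 0 to 2 when 1 library was left out. With skin B as the only skin library, an alternative added after the data were seen, the counts were 6 and 18 of 34 members and 7 and 37 of 69 other genes for skin and SDLN Tregs, beside 10.6% and 46.0% of all genes.

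Column letters in the table could not be tied to replicate numbers in the sample titles. Skin and SDLN libraries of the same letter did not all deviate together from their group means (Pearson's r across the 13572 genes tested, which are not independent replicates, of 0.020, -0.021 and 0.075 for A, B and C, and of 0.042, -0.016 and 0.18 across the 1623 genes over 3 counts in every library), so that not every pair exceeded 0.1, and skin A correlated best with SDLN B (0.063 and 0.15). With the letter as a replicate block, also added after the data were seen, 1 member, Hif1a, was called for skin and 7 for SDLN Tregs, beside 61 and 5633 of all genes, and 0 and 19 of the other pathway genes. The log2 fold change turned sign in that fit for Gpi1 (-0.46), G6pdx (-10.05), Arnt (-1.73), Egln3 (-7.44) and Bnip3 (-5.30).

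Of 419 fold changes of members under the 13 alternatives, 354 kept direction and side of the threshold. The cause of the exceptions was not tested. The log2 fold change turned sign with limma voom for Gpi1 (-0.52), Pfkfb3 (-0.23), Ldha (-0.029), G6pdx (-7.05), Pgd (-1.21), Arnt (-3.03), Egln3 (-1.48) and Bnip3 (-4.29). It turned for Gpi1 and Ldha without a filter (-0.047 and -0.034) and under the minimum of 10 counts (-0.093 and -0.16), and for Ldha with libraries drawn down (-0.041). Over the fits that left out 1 library, the members that turned sign ranged from -1.16 to 0.53 (Gpi1), -0.028 to 0.56 (Pgk1), -0.18 to 0.10 (Ldha), -0.91 to 0.079 (Pdk3), -14.58 to 0.80 (G6pdx), -0.14 to 2.30 (Pgd), -2.45 to 1.67 (Arnt), -2.16 to 0.26 (Egln2), -12.23 to 2.51 (Egln3), -7.37 to 2.11 (Bnip3) and -0.69 to 0.27 (Bnip3l). In the skin libraries 3 counts are 0.255 to 0.800 CPM. Drawn down to the smallest total, each SDLN library still held 34 members over 3 counts, against 17, 18 and 20 in skin A, B and C. Genes at 1 CPM or more numbered 2911, 5317 and 4540 in skin A, B and C and 12397 to 13002 in the SDLN libraries.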
